A study of Mus musculus with 8 samples.

Results

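Myelin genes are described here by 9 members, chosen by name: Mbp, Mog, Mag, Mobp, Cnp, Cldn11, Ermn, Opalin and Mal. They are 9 of 23523 genes or unnamed accessions in the deposited table, and all 9 had enough fragments to test. The data are RNA-seq libraries from 5 mouse glioblastomas and 3 samples of normal mouse brain. The glioblastomas were made in mice with a lentiviral vector that carried HrasG12V together with a hairpin RNA directed at p53, and were collected when the animals reached clinical endpoints. Tumour tissue, marked by GFP, had been freed of surrounding normal brain under a dissecting microscope. The strain, age and sex of the mice, the brain region of the normal samples, and the cells or promoter targeted by the vector are not given in these sources. Whether each sample is a separate animal is not stated, so p-values measure only the spread between these samples, which may be technical.

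Myelin is the stack of membrane that oligodendrocytes wrap around axons in the brain. MBP and MOBP lie between its tightly packed membrane layers, MAL is a membrane proteolipid of the compact sheath, and MOG, MAG and CLDN11 act at its surfaces and seals. The genes are switched on as an oligodendrocyte precursor matures, under transcription factors that include SOX10, OLIG1, OLIG2 and MYRF.

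Depth was 5490351 to 15564280 fragments a library, and levels are in CPM (fragments scaled to a common library size). By raw library totals, before the scaling factors used for the levels, 3 fragments equal 0.193 CPM in the deepest library and 0.546 CPM in the shallowest. The background for the counts below is that 71.0% of 14641 tested genes differed between the groups, 33.9% being lower and 37.1% higher in glioblastoma (edgeR's quasi-likelihood test, Benjamini-Hochberg adjusted p under 0.05). Trp53, the hairpin's target, stood at 4.07 ± 1.51 CPM (SD, n = 5) in tumours and 5.62 ± 1.38 CPM (SD, n = 3) in brains and was not called (edgeR adjusted p = 0.262). Hras was at 413 ± 75.1 CPM in tumours and 99.5 ± 4.61 CPM in brains (SD, n = 5 and n = 3). The neuron gene Snap25, of synaptic vesicle fusion, was at 40.0 ± 9.11 CPM (SD, n = 5) in tumours and 2806 ± 523 CPM (SD, n = 3) in brains. The neuron markers as a list were split, as given below.

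The stretches of DNA just before the starts of 5 members are shown because they come from the members that differed most (Mog and Opalin) and least (Cnp and Cldn11) between the groups, and because Mobp has an unusual run of one motif. Each is the 250 bases before the start, from RefSeq on GRCm38.p6, given 5′ to 3′ along the gene. Capitals mark the SOX core motif ACAAAG or its complement CTTTGT, the MYRF motif CTGGNAC or its complement GTNCCAG, and the E-box CAGCTG, searched on both strands.
Mobp, chr9:120149492-120149741, plus strand: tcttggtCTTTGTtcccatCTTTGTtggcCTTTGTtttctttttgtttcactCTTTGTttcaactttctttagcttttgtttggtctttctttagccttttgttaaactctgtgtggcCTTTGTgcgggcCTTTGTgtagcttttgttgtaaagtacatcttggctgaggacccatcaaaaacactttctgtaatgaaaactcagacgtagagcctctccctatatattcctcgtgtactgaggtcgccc
Mog, chr17:37023399-37023648, minus strand: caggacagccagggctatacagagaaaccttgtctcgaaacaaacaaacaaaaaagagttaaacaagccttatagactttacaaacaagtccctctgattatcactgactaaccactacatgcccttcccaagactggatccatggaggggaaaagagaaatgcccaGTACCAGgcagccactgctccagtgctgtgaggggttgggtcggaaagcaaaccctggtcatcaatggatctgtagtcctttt
Opalin, chr19:41077114-41077363, minus strand: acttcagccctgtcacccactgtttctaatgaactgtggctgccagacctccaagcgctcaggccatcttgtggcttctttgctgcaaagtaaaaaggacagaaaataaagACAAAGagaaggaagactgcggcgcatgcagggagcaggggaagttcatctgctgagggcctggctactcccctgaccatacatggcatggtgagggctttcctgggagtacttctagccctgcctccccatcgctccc
Cnp, chr11:100574689-100574938, plus strand: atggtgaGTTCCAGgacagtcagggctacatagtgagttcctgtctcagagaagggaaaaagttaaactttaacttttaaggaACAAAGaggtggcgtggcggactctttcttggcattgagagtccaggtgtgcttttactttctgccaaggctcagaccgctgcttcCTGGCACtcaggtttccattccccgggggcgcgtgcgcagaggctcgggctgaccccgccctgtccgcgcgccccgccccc
Cldn11, chr3:31149670-31149919, plus strand: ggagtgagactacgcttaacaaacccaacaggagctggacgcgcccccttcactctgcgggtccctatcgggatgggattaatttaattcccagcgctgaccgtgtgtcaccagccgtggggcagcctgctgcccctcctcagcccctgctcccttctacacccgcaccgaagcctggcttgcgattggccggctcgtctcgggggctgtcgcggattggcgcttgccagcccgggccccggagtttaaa
Mobp had 6 SOX core motifs, all written as CTTTGT on the strand shown, and was the 1 window with as many as 6 among 32851 promoter windows of the same length. Windows were found for 8 of the 9 members, and Mag had 3 windows. The SOX core motif stood in windows of 4 of them (Cnp, Mag, Mobp and Opalin), against 16.5% of all windows, and the MYRF motif in those of 3 (Cnp, Mag and Mog), against 16.1%. Cnp and Mag each had a window with 2 MYRF motifs, as 1.58% of all windows had 2 or more. The E-box stood in none of the members' windows and in 13.0% of all windows. GC content was 63.6% in the window of Cldn11 and 40.8% in that of Mobp, against a median of 52.4% over all windows. A match of letters is a description and not evidence that a factor binds there.

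All 9 myelin genes fell in glioblastoma, against 33.9% of tested genes called lower and 71.0% called in either direction, and in none did the tumour and brain values overlap, against 34.5% of tested genes that were lower without overlap. The median log2 fold change of the members was -3.33, against 0.06 over all genes tested. The falls were 20.6-fold for Mog and 19.7-fold for Opalin at one end and 2.98-fold for Cldn11 at the other. The order of Mog and Opalin was not stable: Opalin fell more than Mog under DESeq2, in the limma fits, without tumour 1, 4 or 5 or without brain 2, and with both brain 1 and tumour 4 left out. These are levels in pieces of tissue, in which fewer myelinating cells and less RNA of a gene per cell cannot be told apart.

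**Figure D1:**
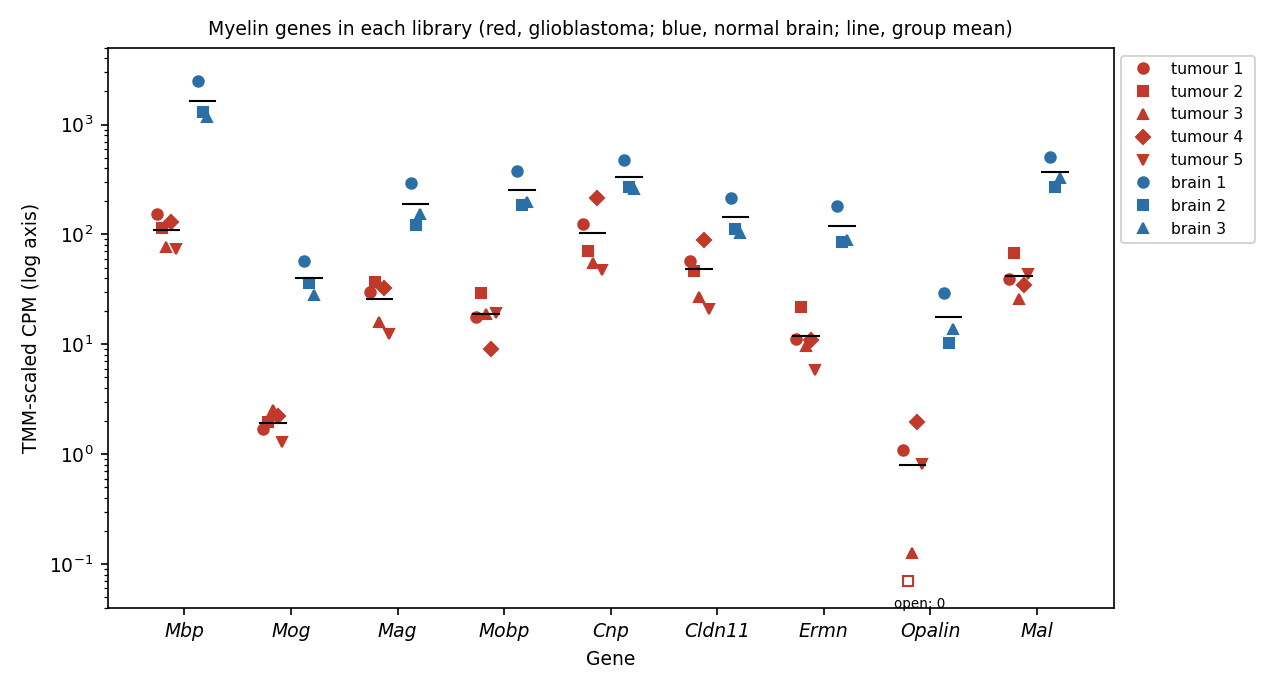
TMM-scaled CPM (log axis) of each of the 9 myelin genes in the 5 glioblastoma libraries (red, left) and the 3 normal brain libraries (blue, right), 1 point for each library, with a line at the group mean; an open symbol stands for 0 fragments. Every brain point lies above every tumour point of the same gene, with the narrowest gaps for Cnp and Cldn11, and brain 1 is the highest point for all 9 genes.

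Among the proteins of compact myelin, Mbp, whose product holds the inner faces of the membrane layers together, had the highest mean CPM of the members in both groups, although Cnp was above it in tumour 4. It stood at 153, 116, 76.1, 131 and 73.3 CPM in tumours 1 to 5, against 2490.0, 1290.0 and 1178 CPM in brains 1 to 3. The lowest brain was thus 7.71 times the highest tumour, and the log2 fold change was -3.91 ± 0.34 (SE; edgeR adjusted p = 1.62e-05). Mobp, which encodes a small basic protein of the same layers, was at 17.7, 29.0, 19.0, 9.14 and 19.4 CPM in tumours 1 to 5, against 381, 185 and 195 CPM in brains 1 to 3. Tumour 4 was the lowest and tumour 2 the highest, and Mobp fell by 3.76 ± 0.37 on the log2 scale (SE; edgeR adjusted p = 3.36e-05). Mal, which encodes a raft-associated proteolipid, was at 39.7, 68.0, 26.0, 34.5 and 43.2 CPM in tumours 1 to 5, against 511, 268 and 327 CPM in brains 1 to 3. Tumour 2 was again the highest tumour, and Mal fell by 3.13 ± 0.32 on the log2 scale (SE; edgeR adjusted p = 4.06e-05).

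Among the surface and adhesion proteins, Mog, which encodes an immunoglobulin-like protein of the outermost layer, fell about as far as Opalin. It was at 1.71, 1.98, 2.52, 2.21 and 1.29 CPM in tumours 1 to 5, against 56.8, 36.1 and 28.1 CPM in brains 1 to 3. The tumours lay close together, and the lowest brain was 11.1 times the highest tumour (log2 fold change -4.37 ± 0.30, SE; edgeR adjusted p = 4.17e-06). Opalin, which encodes a transmembrane glycoprotein of oligodendrocytes, was at 1.09, 0, 0.126, 1.98 and 0.808 CPM in tumours 1 to 5, against 29.6, 10.2 and 13.9 CPM in brains 1 to 3. It rested on 52 fragments in the tumours and 348 in the brains. The 0 of tumour 2 allows a level of up to 0.546 CPM there, by the raw library total. The log2 fold change of Opalin was -4.30 ± 0.75 (SE; edgeR adjusted p = 0.000862), and -5.00 without tumour 4.

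Mag, which encodes the lectin that faces the axon, was at 30.1, 36.8, 15.9, 32.7 and 12.5 CPM in tumours 1 to 5, against 293, 123 and 154 CPM in brains 1 to 3. Tumours 3 and 5 were the low ones, and Mag fell by 2.89 ± 0.41 on the log2 scale (SE; edgeR adjusted p = 0.000263). Cldn11, which encodes the claudin of the myelin tight junctions, was at 56.9, 46.0, 27.0, 89.8 and 20.8 CPM in tumours 1 to 5, against 215, 113 and 103 CPM in brains 1 to 3. Tumour 4 came close to the brains, and the lowest brain was 1.15 times that tumour (log2 fold change -1.57 ± 0.46, SE; edgeR adjusted p = 0.0138).

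The remaining members act in the cytoplasm of the sheath. Cnp, which encodes a cyclic nucleotide phosphodiesterase of the non-compact channels, was at 124, 71.1, 54.6, 213 and 47.9 CPM in tumours 1 to 5, against 473, 269 and 261 CPM in brains 1 to 3. Tumour 4 was again the highest tumour, with the lowest brain at 1.23 times its level, and Cnp fell by 1.71 ± 0.49 on the log2 scale (SE; edgeR adjusted p = 0.0121). Ermn, which encodes an actin-binding protein of the outer cytoplasmic lip, was at 11.2, 21.6, 9.58, 10.9 and 5.90 CPM in tumours 1 to 5, against 180.2, 85.8 and 88.7 CPM in brains 1 to 3. Its log2 fold change was -3.33 ± 0.41 (SE; edgeR adjusted p = 0.000114).

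Brain 1 had the highest level of all 8 libraries for every member, between 1.72 times (Mal) and 2.45 times (Opalin) the mean of brains 2 and 3. Without brain 1, 7 of the 9 members were called lower. Cnp and Cldn11 were then at log2 fold changes of -1.38 and -1.17 (edgeR adjusted p = 0.0565 and 0.0726), and those of the other members ranged from -4.04 for Mog to -2.44 for Mag. With both brain 1 and tumour 4 left out, a choice made after seeing the data, all 9 were called lower. Markers of neurons summed to 8026 CPM in brain 1, against 6830.0 and 6904 CPM in brains 2 and 3. Snap25 alone was at 3408 CPM in brain 1, against 2541 and 2469 CPM in brains 2 and 3. Syp and Stmn2 were lowest in brain 1 among the brains, and each of the other neuron markers was highest there.

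The tumours differed more among themselves for some members than for others. The standard deviation among tumours was 67.4% of the mean for Cnp and 57.0% for Cldn11, but 24.2% for Mog and 31.5% for Mbp. It was 100.2% for Opalin, the member with the fewest fragments. As a percentage of the mean brain level, Cnp was at 37.1, 21.2, 16.3, 63.7 and 14.3% in tumours 1 to 5, and Cldn11 at 39.7, 32.0, 18.8, 62.5 and 14.5%. Both were thus highest in tumour 4, then tumour 1, and lowest in tumour 5. Mobp was instead lowest in tumour 4, with 6.97, 11.5, 7.51, 3.61 and 7.65% of the mean brain level in tumours 1 to 5. Mobp, Mal, Ermn and Mag were highest in tumour 2 among the tumours, Cnp, Cldn11 and Opalin in tumour 4, Mbp in tumour 1 and Mog in tumour 3.

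Some genes of the oligodendrocyte lineage were also high in tumours 1 and 4. Olig1 stood at 93.1, 5.59, 4.16, 266 and 5.98 CPM in tumours 1 to 5, against 67.8, 45.0 and 43.1 CPM in brains 1 to 3. Sox10 followed the same division, with 47.6, 2.16, 2.39, 104 and 6.06 CPM in tumours 1 to 5, against 23.2, 13.6 and 12.8 CPM in brains 1 to 3. Markers of oligodendrocyte precursors summed to 1638, 931, 749, 2496 and 1319 CPM in tumours 1 to 5, against 355, 409 and 443 CPM in brains 1 to 3. Pdgfra and Vcan made up most of that sum in every tumour, and Vcan had its lowest tumour value in tumour 4 (211 CPM) and its highest in tumour 5 (897 CPM). The median precursor marker was at 251, 15.0, 13.9, 501 and 30.7% of its mean brain level in tumours 1 to 5, above the brains in tumours 1 and 4 and below them in the other tumours. In tumours 1 and 4 Neu4 was at 18.6 and 18.0% of its mean brain level, while all other precursor markers exceeded theirs. None of these 9 markers was at 0 in every library, and their part in the levels of Cnp and Cldn11 was not tested.

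**Figure D2:**
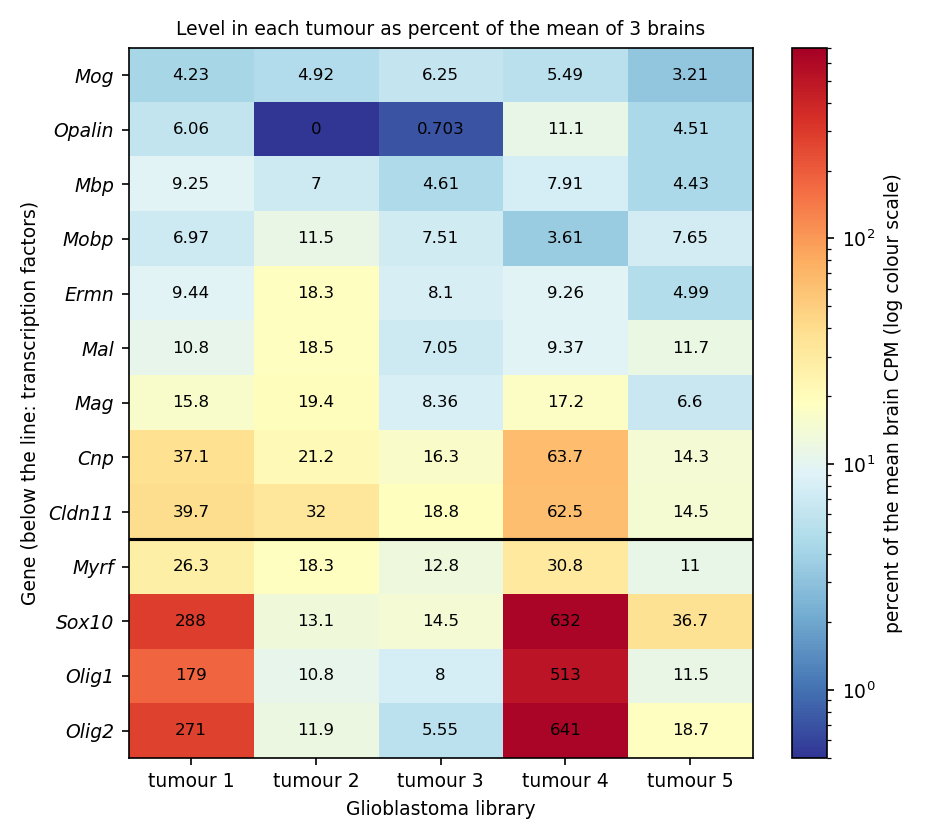
Level of the 9 myelin genes (above the line, ordered by log2 fold change) and of 4 oligodendrocyte transcription factors (below it) in each of the 5 glioblastoma libraries, as a percentage of the mean CPM of the 3 brains; the colour scale is logarithmic and a value of 0 has the lowest colour. Mog and Opalin stay at or below 11.1% in every tumour, Cnp and Cldn11 peak in tumour 4 at 63.7 and 62.5%, and Sox10, Olig1 and Olig2 exceed the brain mean in tumours 1 and 4 only.

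To set the members against each other, the log2 ratio of each to Mbp was compared between tumours and brains, a test added after the data were seen. The ratio of Cnp to Mbp averaged -0.28 ± 0.57 (SD, n = 5) in tumours and -2.28 ± 0.11 (SD, n = 3) in brains on the log2 scale of CPM. For Cldn11 the ratio was -1.32 ± 0.47 in tumours and -3.52 ± 0.01 in brains, and for Mag it was -2.15 ± 0.34 in tumours and -3.14 ± 0.23 in brains. In these 3 genes the ratios of the groups did not overlap, and each had p = 0.0357, the smallest that a two-sided exact permutation test allows for 5 libraries against 3. Adjusted over the 8 ratios, this was 0.0952, which did not pass. The ratios of Mog, Mobp, Ermn, Opalin and Mal overlapped between the groups (exact permutation p between 0.0714 and 0.786). The difference for Mobp was 0.15 and that for Mog was -0.30 on the log2 scale.

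Levels per transcript length, in the authors' FPKM, placed Mbp first by the mean in both groups, at 52.5 ± 16.9 FPKM (SD, n = 5) in tumours and 832 ± 381 FPKM (SD, n = 3) in brains. In tumours the order continued with Cnp at 44.0, Cldn11 at 27.0, Mal at 15.5, Mag at 10.8, Mobp at 7.57, Ermn at 3.37, Mog at 1.21 and Opalin at 1.08 FPKM. In brains it continued with Cnp at 139, Mal at 135, Mobp at 100.3, Cldn11 at 81.3, Mag at 80.7, Ermn at 33.7, Mog at 25.3 and Opalin at 24.5 FPKM. Mbp made up 33.0% of the members' summed FPKM in tumours (24.9 to 37.4% by library) and 56.9% in brains (54.2 to 58.4%). Some neighbours in these orders were not separated in every library. Mbp was above Cnp in 4 of 5 tumours, the exception being tumour 4 with Cnp at 90.6 and Mbp at 58.5 FPKM. Mog was above Opalin in 2 of 5 tumours and 1 of 3 brains, and Cldn11 was above Mag in 1 of 3 brains.

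The members with several RefSeq transcripts were also read by transcript, where the split of fragments is an estimate of the authors' software. Mbp has transcripts from an upstream start, of the golli type, and from the downstream start that gives the classic myelin proteins. Transcripts from the upstream start were at 15.5, 8.46, 8.17, 24.6 and 9.37 CPM in tumours 1 to 5, against 77.6, 100.5 and 92.3 CPM in brains 1 to 3. Those from the downstream start were at 137, 107, 68.0, 106 and 63.9 CPM in tumours 1 to 5, against 2412, 1189.5 and 1085 CPM in brains 1 to 3. The tumour mean was thus 14.7% of the brain mean for the upstream start and 6.17% for the downstream start, with no test of the difference. Brain 1 was 2.12 times the mean of brains 2 and 3 for the downstream start, but 0.804 times that mean for the upstream start.

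Cnp is listed with 2 transcripts. NM_001146318 was at 32.0, 16.2, 4.72, 44.2 and 10.6 CPM in tumours 1 to 5, against 317, 191 and 184 CPM in brains 1 to 3. NM_009923 was at 92.1, 54.9, 49.9, 169 and 37.3 CPM in tumours 1 to 5, against 156, 78.3 and 77.3 CPM in brains 1 to 3. The groups did not overlap for the first transcript, while for the second tumour 4 lay above all 3 brains and tumour 1 above brains 2 and 3. NM_001146318 made up between 8.65 and 25.8% of Cnp in tumours and between 67.1 and 70.9% in brains.

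**Figure D3:**
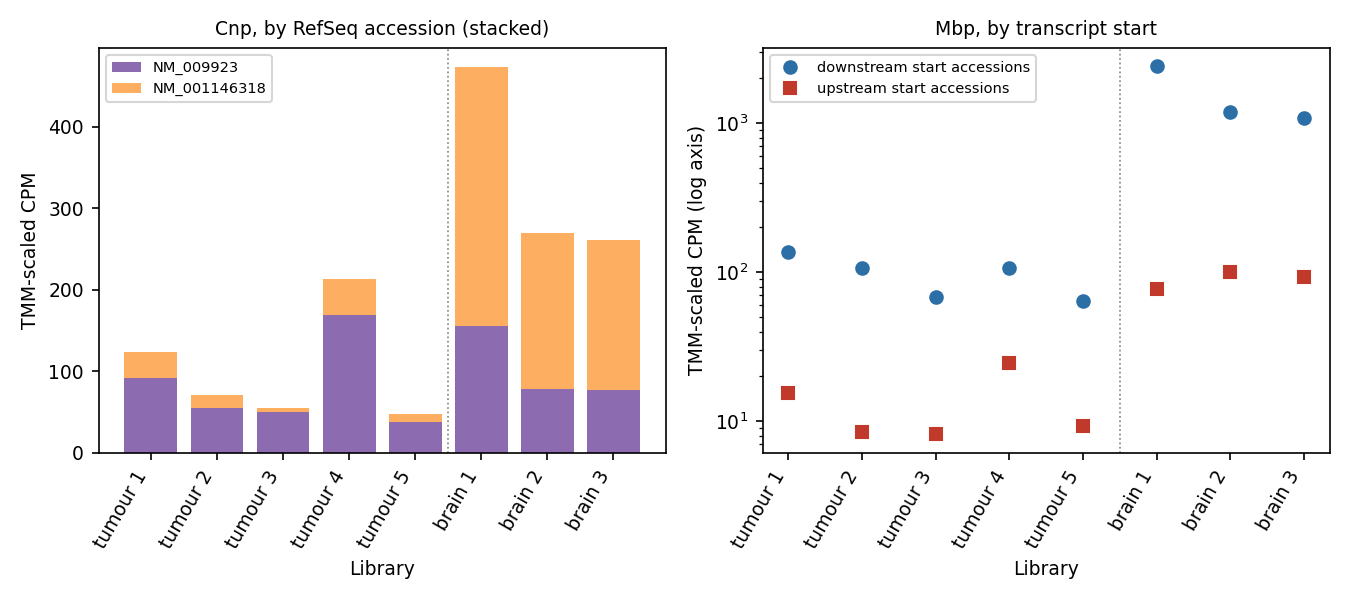
Left, TMM-scaled CPM of Cnp in each library, stacked by RefSeq transcript; right, TMM-scaled CPM (log axis) of Mbp transcripts by start. The 5 glioblastoma libraries stand left of the dotted line and the 3 brains right of it; NM_001146318 takes at most 25.8% of a tumour bar and at least 67.1% of a brain bar.

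Other genes of the sheath and its junctions mostly fell as well. Of 14 such genes, 9 were called lower, 1 higher and 4 were not called, with a median log2 fold change of -2.54 against 0.06 over all genes. The number lower was 12 without tumour 4 and 8 without brain 1. Cntn2, an adhesion protein at the axon and myelin border, was at 7.54 ± 2.54 CPM (SD, n = 5) in tumours and 122 ± 31.6 CPM (SD, n = 3) in brains. Its log2 fold change was -4.03 ± 0.28, and that of Gpr37, an oligodendrocyte receptor, was -3.56 ± 0.41 (SE). Jam3, a junction adhesion molecule, was called higher at 1.27 ± 0.48 (SE; edgeR adjusted p = 0.0411), a call that was lost without tumour 1, tumour 5 or any 1 of the brains and in the 3 limma fits on FPKM.

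Genes that make myelin lipids were divided, with 2 lower, 3 higher and 5 not called of 10 tested. Fa2h, the hydroxylase for the fatty acids of myelin galactolipids, was at a log2 fold change of -3.94 ± 0.49, and at -3.34 without brain 1. Elovl1 and Cers2, which lengthen fatty acids and join very long ones to ceramide, were higher by 2.57 ± 0.22 and 2.17 ± 0.26 on the log2 scale (SE). Hmgcs1 was listed at 0 in all 8 libraries. The number lower was 5 without tumour 4.

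Of 10 transcription factors of the lineage, 4 were called lower and 6 were not called. St18, a zinc finger factor, was at a log2 fold change of -3.77 ± 0.28, and Zfp536 at -3.04 ± 0.57 (SE), or -3.82 without tumour 4. Myrf, the factor that drives myelin genes directly, was at 3.88, 2.71, 1.89, 4.54 and 1.62 CPM in tumours 1 to 5, against 22.3, 12.3 and 9.68 CPM in brains 1 to 3. Every tumour lay below every brain for Myrf (log2 fold change -2.32 ± 0.41, SE; edgeR adjusted p = 0.00093). Sox10, Olig1 and Olig2 were not called (edgeR adjusted p = 0.485, 0.726 and 0.547).

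Markers of mature oligodendrocytes outside the 9 members did not move one way: of 15, 5 were lower, 6 higher and 4 not called. Without brain 2 or without brain 3, 4 were higher, and which cells these transcripts came from was not tested. S1pr5, a receptor for sphingosine phosphate, was at a log2 fold change of -3.67 ± 0.43, while Klk6, a secreted protease, was at 2.48 ± 0.56 and Gsn, which severs actin filaments, at 2.28 ± 0.31 (SE). Of 8 markers of newly formed oligodendrocytes, 3 were lower and 3 higher, with 1 lower without brain 1. Gpr17, a receptor of that stage, was at -2.54 ± 0.87, Sema5a at -1.10 ± 0.21 and Frmd4a at 1.58 ± 0.13 (SE). Of the 9 precursor markers, 1 was lower and 2 were higher. Vcan, a matrix proteoglycan, was at 4.04 ± 0.49 and Pdgfra, the growth factor receptor of precursors, at 2.36 ± 0.73, while Neu4 was at -3.25 ± 0.56 (SE). The number higher was 1 without brain 1 or without brain 2.

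**Figure D4:**
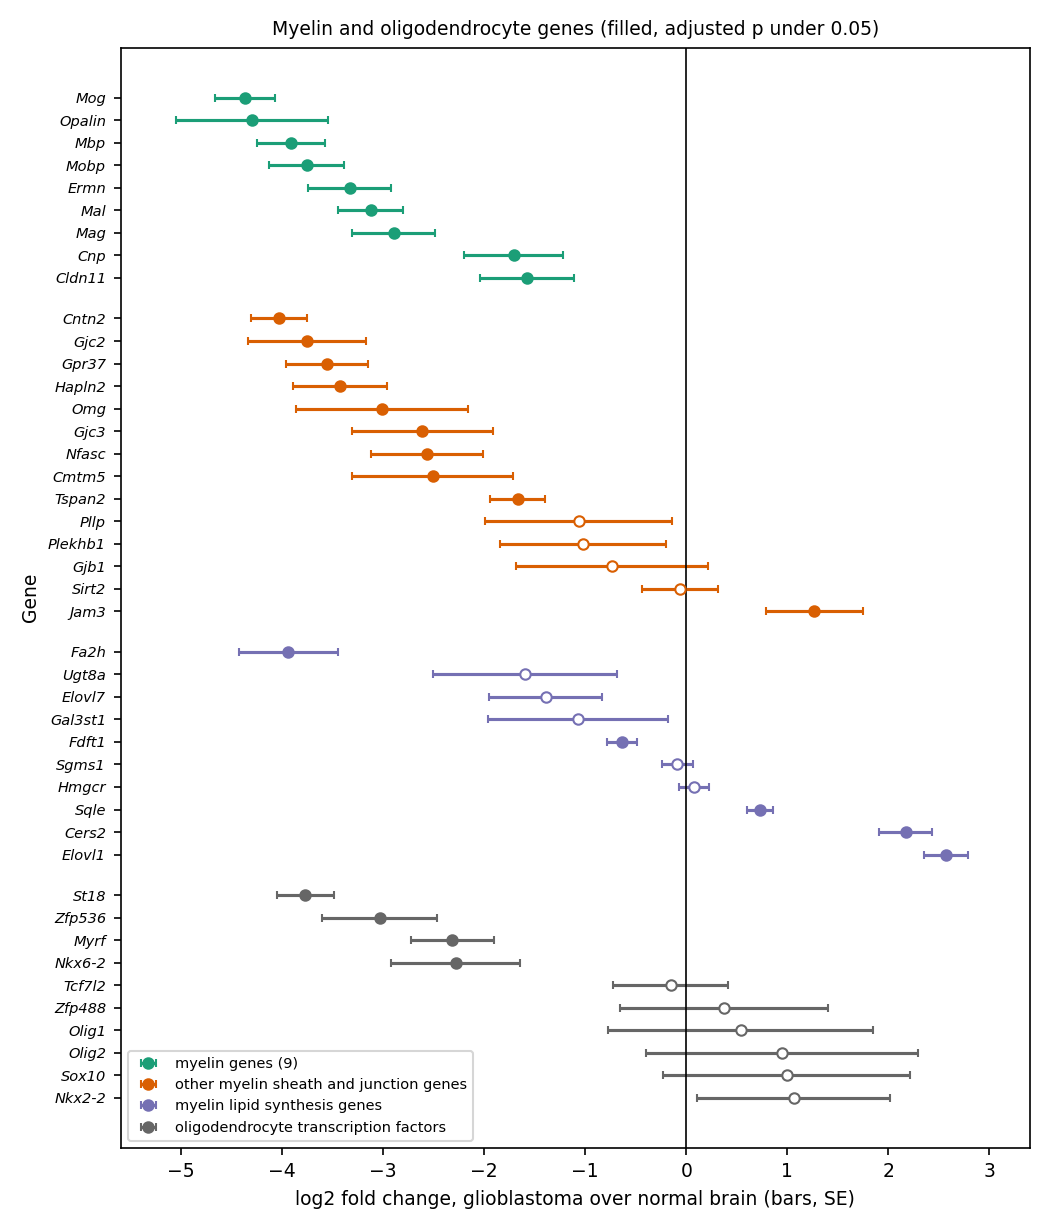
Log2 fold change, glioblastoma over normal brain, of the 9 myelin genes and of tested genes from related lists; bars are SE and filled points passed an adjusted p of 0.05. All 9 myelin genes are filled and lie between -4.37 and -1.57, while the other lists extend to both sides of 0.

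Markers of other cell types were read beside these values. Of 8 neuron markers, 5 were lower and none higher, and their sum was between 267 and 996 CPM in tumours and between 6830.0 and 8026 CPM in brains. The median neuron marker stood at 2.08, 2.06, 1.52, 1.41 and 2.54% of the mean brain level in tumours 1 to 5, against 9.44, 18.3, 7.51, 9.37 and 6.60% for the median myelin gene. The list was split: Snap25, Rbfox3, Syt1, Syp and Vsnl1 were called lower, with tumour means between 1.33 and 1.97% of the brain mean, while Stmn2, Nefl and Nefm were not called and had tumour means of 69.3, 66.3 and 71.5%. Vsnl1, a calcium sensor, was at a log2 fold change of -6.23 ± 0.28 (SE). Astrocyte markers, of which 4 of 8 were lower and 1 higher, summed to between 934 and 2596 CPM in tumours and between 4713 and 5194 CPM in brains, with 2 higher without tumour 4. Only 3 were lower without any 1 of the brains or without tumour 1, 2, 3 or 5. As few were lower with upper quartile factors, with library size only and with no filter on low counts. Slc1a2, a glutamate transporter, made up most of the brain sum, with 193 ± 127 CPM (SD, n = 5) in tumours and 3186 ± 186 CPM (SD, n = 3) in brains. The median astrocyte marker was at 77.1, 87.7, 36.7, 90.0 and 50.7% of its mean brain level in tumours 1 to 5. Slc1a2 was at a log2 fold change of -4.04 ± 0.48, Fgfr3 at -2.37 ± 0.46 and Sox9 at 1.94 ± 0.29 (SE). Gfap, Gja1 and Aldh1l1 were not called, with tumour means of 168, 141 and 113% of the brain mean.

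Schwann cells, which myelinate peripheral nerves, share several myelin genes. Their 8 markers summed to between 32.5 and 335 CPM in tumours and between 16.4 and 28.4 CPM in brains, and 3 of 4 tested were higher. Dhh, a signalling ligand, was at 45.3, 7.22, 2.27, 153 and 20.3 CPM in tumours 1 to 5, against 3 fragments over the brains. Egr2 was at a log2 fold change of 1.95 ± 0.63 (SE), and at 2.64 without brain 2. Of 8 markers of meningeal fibroblasts, 5 were higher and 1 lower, with sums between 185 and 545 CPM in tumours and between 38.2 and 111 CPM in brains. Lum, a matrix proteoglycan, was at a log2 fold change of 4.55 ± 0.74 and Crabp2 at 5.21 ± 1.03 (SE), or 4.41 without tumour 4 and 6.19 without brain 3. The 1 lower gene, Slc6a13, a transporter, was at -2.39 ± 0.64 (SE), and at -1.30 and not called without brain 3 (edgeR adjusted p = 0.0891). T cell markers summed to between 2.59 and 7.45 CPM in tumours and between 1.01 and 3.14 CPM in brains, and Lck, the 1 of 6 that was tested, was not called (log2 fold change 0.45 ± 0.59, SE; edgeR adjusted p = 0.515). The part of these cell types in the members' levels was not tested.

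The genes most like the members were sought by Pearson's r over the 8 libraries among 10927 other genes, as a description. After removing the group means, the mean log2 CPM of the members was most like Serpinb8 (r = 0.963), Mcee (0.952), Enpp2 (0.941), Rnf7 (0.934) and Srpk2 (0.932). By that measure 11 genes had r above 0.9, and how many a search of this size gives by chance was not tested. Enpp2, which encodes a secreted lysophospholipase made by oligodendrocytes, was at 98.3, 81.0, 67.6, 159.5 and 56.2 CPM in tumours 1 to 5, against 1189.5, 271 and 318 CPM in brains 1 to 3. With the group means kept, the closest were Exph5 (0.994), Rasgef1b (0.993), Gpr37 (0.992), B3gat3 (0.991) and Chchd10 (0.991), and 2364 genes had r above 0.9. Among the members, r with the mean of the others after removing group means ran from 0.959 for Mbp and 0.904 for Mag to 0.260 for Opalin and 0.0304 for Mobp. The 8 points share libraries and depth, and brain 1 stands apart in them.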

How the data were processed

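RNA was measured by RNA-seq in 5 glioblastomas and 3 normal brains, grouped by the tissue in the labels and numbered in accession order, which pairs no samples. Reads were handled with STAR 2.3.0e and Cuffdiff 2.1.1 on mm9, per the submitters' processing notes. Settings, strand and annotation release are not given in these sources. Deposited by the authors were estimated counts of fragments and FPKM values, per the file headers, for 30967 RefSeq transcripts in each library. Symbols were taken for 30474 of them from the NCBI RefSeq table and for 178 from GENCODE; the other 315 held 0.507% of fragments and kept their identifiers. Estimated counts were added up over the transcripts of a gene, then rounded. Sums were not whole within 0.01 in some library for 608 genes, Mbp among them in 1 library.

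Tests used edgeR 4.0.16 (TMM factors, filterByExpr, robust quasi-likelihood test) in R 4.3.3, with Benjamini-Hochberg adjustment over 14641 genes and a threshold of 0.05. CPM is TMM scaled, and log2 CPM in ratios and likeness used a prior count of 2. Ratios to Mbp were compared by a two-sided exact permutation test over 56 splits. DESeq2 1.42.0, limma 3.58.1 on log2(FPKM + 1) and log2(FPKM + 0.1), other scalings and filters, and leaving out each library were alternatives. The edgeR script was tested on simulated data. The members and lists were chosen with earlier results of these data known. Named genes were all 9 members and, per list, the 2 called genes that changed most in the commoner direction (minimum 10 CPM in whichever group was higher), plus the 1 that changed most the other way, or the 2 most abundant where none was called. Genes from the likeness search, the lineage factors and Hmgcs1 and Enpp2 were named besides, some after their values were seen. A gene of the Schwann cell list is not reported here by itself. Promoter windows came from a RefSeq table on GRCm38.p6, which is not the build of the deposited table, so no position was carried between them. Limits from counts cover counting error only.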

Additional observations from a re-analysis of the deposited data

Results flagged for a closer look

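In 8 of 52 sets of 5 tumour values, the highest or lowest tumour passed Dixon's critical value of 0.71 for distance from the other 4. The sets covered the members, the list sums, the named genes and the Mbp levels by transcript start. For independent sets of normally distributed values, chance gives about 1 such set in 20. These sets overlap, as the Schwann cell sum includes Dhh and Egr2, and the CPM values were not checked for normality. None of the 8 was a myelin gene of the 9. Tumour 4 was the one set apart in 7 of the 8. It was highest for the summed Schwann cell markers (335 CPM), for Dhh (153 CPM), for Egr2, a transcription factor of Schwann cells (40.7 CPM), for Fgfr3, a growth factor receptor (60.2 CPM), for Crabp2, a retinoic acid binding protein (92.6 CPM), and for Zfp536 (9.78 CPM). It was lowest for Elovl1 (39.4 CPM). Tumour 2 was highest for Cd247, a T cell receptor chain (1.62 CPM).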

How the results depend on the processing

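Counts of called myelin genes stayed at 9 of 9 under DESeq2, other scalings and filters, limma on FPKM and each left-out library except brain 1, where 7 were called. Leaving out 1 library moved the log2 fold change of Cnp between -2.16 and -1.38 and that of Cldn11 between -1.93 and -1.17, where the values nearest 0 are those without brain 1 and were not called; the cause was not tested. In brains, 3 to 9 of the 9 members kept their rank when 1 library was left out, with 3 without brain 2. Lck ranged from -0.021 without tumour 4 to 0.684 without brain 3 and was -0.389 with both brain 1 and tumour 4 left out. The median of all genes shifted from 0.06 to 0.18 with upper quartile factors and 0.20 with library size only. Levels per length from CPM were not run, since the table lists no lengths. No paired analysis was possible because the replicate numbers were given in accession order. Low counts limit Opalin and Mog, which had 52 and 96 fragments over the tumours.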
